A study of Mus musculus with 7 samples.

Results

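Open chromatin was compared between male mouse embryonic stem cells with an intact doxycycline-inducible Xist and cells of the same design without the A repeat of Xist, both before induction. The comparison uses 2 of the 7 samples of the study, and each is represented by 1 peak list made from merged libraries. The wild-type list held 139825 peaks and the deltaRepA list 129055, together 268880 of the 536904 peaks in the 4 lists of these cells. The members are every peak of both lists, taken without any choice by value.

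Per the labels, both lines were male J1 embryonic stem cells (TXY) in which Xist sits at its own place on the X under doxycycline control. One line is labelled TXY WT, the other TXY deltaRepA, and both samples were untreated. The same lines were also measured after 48 hours with 2 ug/mL doxycycline (plus dox). Those plus-dox lists, with 125498 wild-type and 142526 deltaRepA peaks, serve here as a second and separately made pair of lists from the same lines. The labels of both plus-dox samples name a no-dox file in their description, and the titles were followed. Each genotype is 1 line, and the sources used here do not say whether a line is 1 clone. An effect of the deletion and any other difference between the lines therefore cannot be told apart.

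Xist is the long noncoding RNA that coats an X chromosome and silences its genes in female cells. Its A repeat, a stretch of short repeated units near the start of the RNA, is needed for that silencing. Before induction the RNA is not switched on by the drug, so this comparison describes the chromatin from which the 2 lines start. ATAC-seq marks open chromatin, mostly promoters, enhancers and other sites where the Tn5 transposase can reach the DNA.

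The lists matched the labels where that could be checked. Both held chromosome Y peaks, 39 in wild type and 34 in deltaRepA. A strong peak is one with a −log10 p of at least 20, the authors' own value for that peak. Of the 18506 strong autosomal wild-type peaks 96.8% overlapped a peak of the female embryonic stem cells of this study and 66.4% one of its wild-type neural progenitors. For the 10470 strong autosomal deltaRepA peaks the shares were 96.7% and 61.2%. Marker genes of the cell type were not examined, because no annotation of the files' mouse build, mm9, was used here.

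The wild-type list was the deeper one. From the deposited fold enrichment and p of each peak, the whole number of reads at its summit and the background expected there were recovered for 100% of peaks in each list. The genome-wide background was 3.81 reads in wild type and 2.01 in deltaRepA, a ratio of 1.89, and in the plus-dox lists 2.14 and 2.17. Median summit reads were 17 in wild type and 11 in deltaRepA. Of the wild-type peaks 5.26% had a q above 5%, next to 10.7% of the deltaRepA peaks. The part of depth in which weak peaks were called was not tested. Intervals given below cover counting error only, and no p-value is given between the lines, since each is 1 list without a replicate check.

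The strongest open sites were the same in both lines. The 5 peaks with the highest −log10 p in wild type were also the 5 highest in deltaRepA, in a slightly different order. They lay on chromosome 16 at 11144005 to 11144514, chromosome 3 at 5860291 to 5860919, chromosome 9 at 123370915 to 123371394, chromosome 16 at 57391275 to 57391929 and chromosome 11 at 108872808 to 108873503 in the wild-type list. The first had 257 summit reads in wild type, 178 in deltaRepA, 270 in wild type plus dox and 186 in deltaRepA plus dox. The second had 285, 209, 282 and 197. All 5 were also peaks in female embryonic stem cells and in neural progenitors.

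Most strong sites were shared, and most weak ones were found in a single list. Of the wild-type peaks 84832 (60.7%, 95% interval 60.4% to 60.9%) overlapped a deltaRepA peak by at least 1 bp, and 39.3% did not. Of the deltaRepA peaks 85619 (66.3%, 66.1% to 66.6%) overlapped a wild-type peak, and 33.7% did not. The same measure within a line gave similar values: 62.0% of wild-type no-dox peaks were found in the wild-type plus-dox list and 68.8% of deltaRepA no-dox peaks in the deltaRepA plus-dox list. For all no-dox peaks together, the overlap between lines was thus 1.30 and 2.43 points lower than the overlap within a line, whose samples differ by drug. The gap was wider for plus-dox peaks. In wild type 69.7% were found in its own no-dox list and 63.7% in the deltaRepA plus-dox list. In deltaRepA 63.0% were found in its own no-dox list and 56.8% in the wild-type plus-dox list. The lists searched differ in length, and the part of this was not tested.

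Stronger peaks were shared more often. In the weakest decile of the wild-type list 23.6% of peaks were found in deltaRepA, in the fifth decile 50.9% and in the strongest 99.6%. For deltaRepA peaks the same deciles gave 29.6%, 59.9% and 98.8%. With a −log10 p of 40 or more, 8 of 5560 wild-type peaks and 1 of 2185 deltaRepA peaks had no counterpart. Peaks without a counterpart were narrow, with a median width of 283 bp against 470 bp for shared ones in wild type and 269 bp against 434 bp in deltaRepA.

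**Figure D1:**
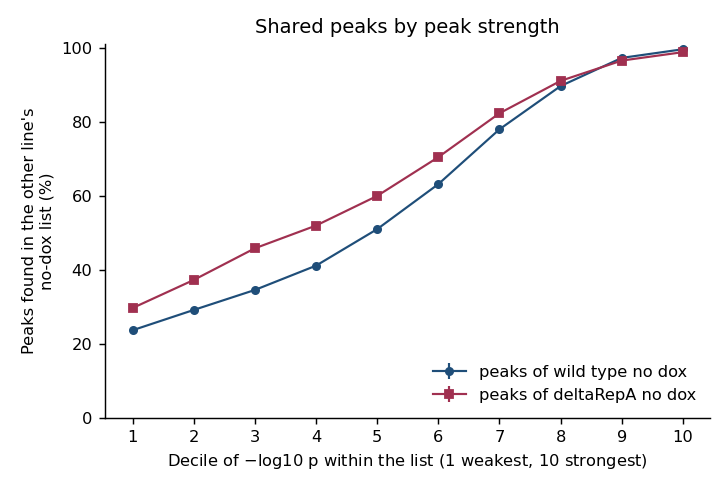
Share of peaks found in the no-dox list of the other line (vertical axis, percent) by decile of −log10 p within the list (horizontal axis), with exact 95% intervals that are mostly smaller than the symbols. Wild-type peaks (circles) rise from 23.6% to 99.6% and deltaRepA peaks (squares) from 29.6% to 98.8%.

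Among strong peaks the lines differed more from each other than a line differed from itself with the drug. Of the 19043 strong wild-type peaks 133 had no deltaRepA counterpart, or 0.698%, while 13 were absent from the wild-type plus-dox list and 5 of those 13 were on the X. Of the 10813 strong deltaRepA peaks 110 had no wild-type counterpart, or 1.02%, while none was absent from the deltaRepA plus-dox list. Nearly all of the unmatched strong peaks were present again in the second list of their own line, 132 of 133 in wild type and 110 of 110 in deltaRepA. In the plus-dox list of the other line, 53 of the 133 and 24 of the 110 were present.

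That leaves 79 strong peaks in both wild-type lists and neither deltaRepA list, and 86 in both deltaRepA lists and neither wild-type list. Over peaks of any strength the counts were 10454 (7.48% of the wild-type list) and 10982 (8.51% of the deltaRepA list). A crossed count gives a base for these. Of the peaks absent from the other line's no-dox list, 7440 in wild type and 3502 in deltaRepA were found only in the other line's plus-dox list. Among strong peaks none was of that crossed kind. The part of uneven calling of weak peaks in these counts was not tested. Sites in all 4 lists made up 45.1% of wild-type and 49.2% of deltaRepA peaks. Of the strong line-specific peaks 39 of 79 in wild type and 32 of 86 in deltaRepA overlapped a peak of the female embryonic stem cells. Among strong unmatched autosomal peaks, 26.3% of those in wild type and 3.70% of those in deltaRepA overlapped a neural progenitor peak, both below the shares of all strong peaks given above.

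The strongest wild-type site of this kind lay on chromosome 13 at 74925101 to 74925735. It had 91 summit reads without dox and 69 with dox and held rank 1022 in its list, and the nearest deltaRepA peaks were 16589 bp away without dox and 12806 bp away with dox. The next lay on chromosome 14 at 120362698 to 120363438, with 78 and 67 reads, and on chromosome 7 at 152408110 to 152408824, with 73 and 33 reads. All were called in both wild-type lists and in neither deltaRepA list. Further ones were chromosome 17 at 36291234 to 36292055, with 76 and 41 reads, and chromosome 14 at 84222798 to 84223461, with 61 and 45 reads. Of the 10 named wild-type sites 5 were open in female embryonic stem cells and 3 in neural progenitors.

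In deltaRepA the strongest such site lay on chromosome 2 at 41197131 to 41197614. It had 46 summit reads without dox and 33 with dox, and the nearest wild-type peaks were 15734 bp and 15228 bp away. Chromosome 2 held 2 more of the 10 named sites, at 88809329 to 88810041 with 39 and 33 reads and at 144965297 to 144965923 with 39 and 38 reads. Chromosome 14 held another pair, at 88340590 to 88341238 with 43 and 46 reads and at 93342735 to 93343650 with 40 and 30 reads. The site on chromosome 12 at 68382864 to 68383407 had 37 and 39 reads. Of the 10 named deltaRepA sites 7 were open in female embryonic stem cells and none in neural progenitors.

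Line-specific sites were unevenly spread over the chromosomes. In deltaRepA they made up 12.4% of the chromosome 14 peaks and 12.1% of those on chromosome 12, but 3.69% on chromosome 8 and 4.66% on chromosome 19. In wild type they made up 12.1% on chromosome 19 and 11.0% on chromosome 8, against 5.26% on chromosome 12 and 7.29% on chromosome 14. Among better wild-type peaks, those with a −log10 p of at least 10, chromosomes 8 and 12 were close at 2.15% and 1.95%. Among strong ones chromosome 12 had 11 of 769, as many as chromosome 17 and more than any other chromosome, while chromosome 8 had 3 of 1256 and chromosome 19 had 2 of 581. Chromosome 14 stood apart in deltaRepA among better peaks too. With a −log10 p of at least 10, 80 of its 1219 peaks (6.56%, 5.24% to 8.10%) were line-specific, and the next chromosome was 10 with 3.20%. Of the 86 strong deltaRepA-specific peaks 15 lay on chromosome 14. The crossed count given above was not made for each autosome, so the part of weak-peak calling in these shares was not tested.

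Peak numbers differed by whole chromosomes. The ratio of deltaRepA to wild-type peaks, divided by the ratio over the 19 autosomes, was lowest on chromosome 8 at 0.663 (0.643 to 0.684), with 6632 against 10861 peaks. Chromosome 19 followed at 0.757 (0.721 to 0.795) and chromosome 11 at 0.853 (0.825 to 0.882). The highest was chromosome 12 at 1.32 (1.28 to 1.37), with 6602 against 5423 peaks, then chromosome 3 at 1.15 and chromosome 16 at 1.14. Every one of these intervals lay clear of 1, while chromosomes 2, 4, 7 and 17 had intervals that held it. Chromosome Y, at 0.947 (0.598 to 1.50), had too few peaks to place.

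The plus-dox pair gave nearly the same order on the autosomes. Chromosome 8 was at 0.679, chromosome 19 at 0.701, chromosome 11 at 0.872 and chromosome 12 at 1.28. Without dox the chromosome 8 ratio was 0.779 (0.733 to 0.829) among peaks with a −log10 p of at least 10, chromosome 19 was at 0.728 and chromosome 12 at 1.21. Chromosome 1, at 0.905 over all peaks, was at 1.06 among these and at 1.12 among strong peaks, so it was lower over all peaks but not among the stronger ones.

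**Figure D2:**
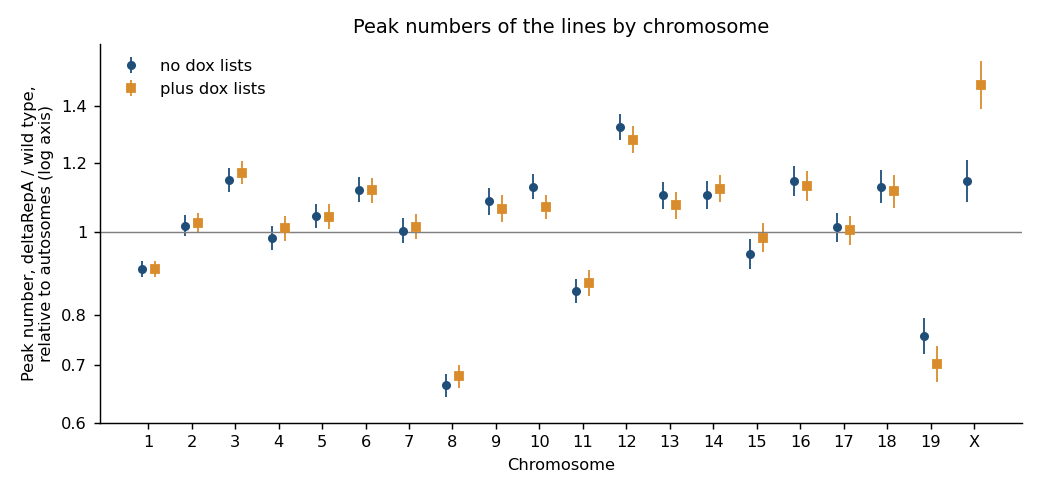
Ratio of deltaRepA to wild-type peak numbers per chromosome relative to all autosomes (vertical log axis), for the no-dox lists (circles) and the plus-dox lists (squares), with 95% intervals for counting error; chromosome Y is not drawn. Chromosome 8 is lowest without dox at 0.663 and 0.679 with dox, chromosome 12 the highest autosome at 1.32 and 1.28, and the X moves from 1.14 to 1.48.

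The share of peaks with a counterpart largely restates these count ratios. The number of shared peaks of a chromosome is nearly the same from either list, 5065 and 5129 on chromosome 8. Of the wild-type peaks on chromosome 8, 46.6% (45.7% to 47.6%) were found in deltaRepA, the lowest of all chromosomes, with 63.1% as the median of the autosomes. Among deltaRepA peaks found in wild type, chromosome 19 had 80.9%, chromosome 11 77.7% and chromosome 8 77.3%, next to a median of 66.3%. Chromosome 12 was the reverse, with 68.9% of wild-type peaks and 57.0% of deltaRepA peaks found. Chromosome 1 was below the median on both sides, with 52.2% and 62.9%. After every chromosome was weighted to the same peak strengths, chromosome 8 stood -10.3 points from the autosomal median for wild-type peaks and 10.5 points from it for deltaRepA peaks.

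On chromosomes 8, 12 and 19 the local background of the peaks moved with the peak numbers. In wild type 61.3% of chromosome 8 peaks had a local background above the genome-wide value, next to an autosomal median of 42.4%, and in deltaRepA 48.8% next to 47.2%. On chromosome 12 the shares were 41.3% in wild type and 60.2% in deltaRepA. On chromosome 19 they were 54.4% and 41.7%. On these 3 chromosomes more peaks had raised reads around them in the line that also had more peaks. Other chromosomes did not all do so. On chromosome 1 the shares were 65.9% in wild type and 66.8% in deltaRepA. Chromosome 16 stood -9.39 and -9.26 points from the autosomal medians. The part of raised local background in the peak numbers was not tested.

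Shared peaks allow the reads themselves to be set side by side. One-to-one matching by largest overlap gave 83997 pairs, with summits a median of 58 bp apart and 70.0% within 100 bp. The rank of −log10 p was similar in both lists, with a Spearman rho of 0.73 across these peaks, which share each library's depth and are not replicates. The 37741 pairs with at least 40 summit reads over both lists were used for read ratios. All ratios are deltaRepA over wild type on the log2 scale, relative to the autosomal median of the raw ratio, which was -0.75; the background reads alone gave -0.92.

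Shared peaks on chromosomes 19, 8, 11 and 15 had relatively fewer reads in deltaRepA, and those on chromosomes 12 and 3 more. The median was -0.33 on chromosome 19 over 1090 peaks, with quartiles of -0.64 and -0.02, and -0.28 on chromosome 8 over 2470 peaks, with quartiles of -0.59 and 0.02. On chromosome 11 it was -0.18 and on chromosome 15 -0.12. On chromosome 12 it was 0.25 over 1619 peaks, with quartiles of -0.04 and 0.53, and on chromosome 3 it was 0.14. The shift concerned most peaks of a chromosome: 73.3% of those on chromosome 8 and 76.4% of those on chromosome 19 lay below the autosomal median, against 28.2% on chromosome 12. In the plus-dox pair the medians were -0.43 on chromosome 19, -0.25 on chromosome 8, -0.20 on chromosome 11 and 0.24 on chromosome 12.

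**Figure D3:**
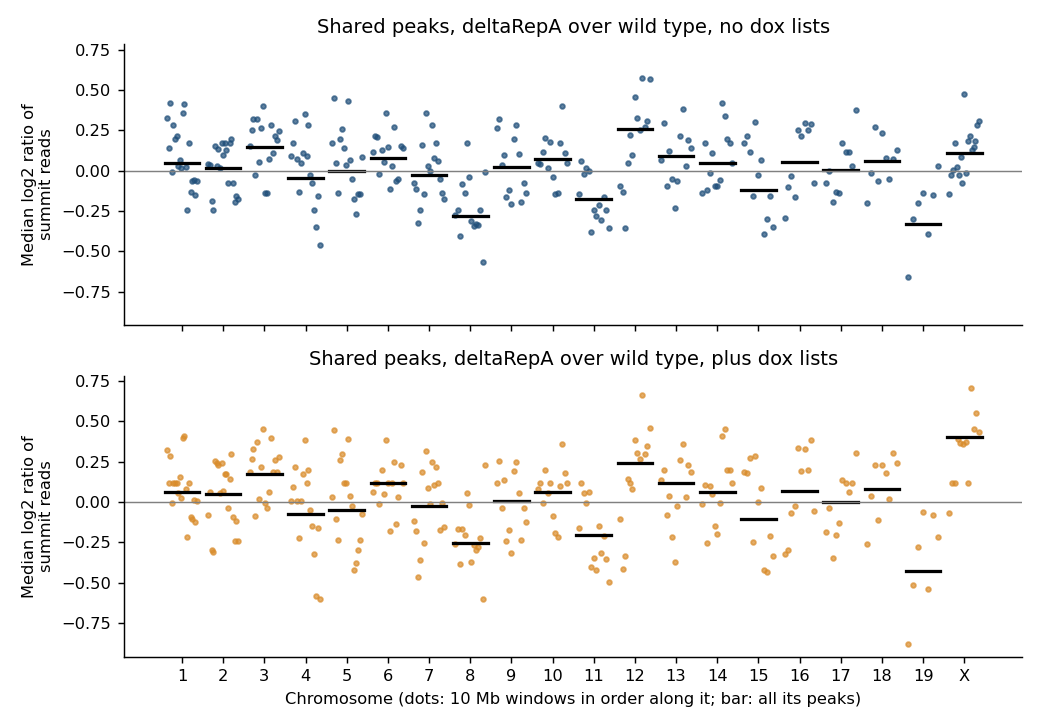
Median log2 ratio of summit reads at shared peaks, deltaRepA over wild type, relative to the autosomal median (vertical axis), per chromosome for the no-dox lists (upper panel) and the plus-dox lists (lower panel). Bars are all peaks of a chromosome and dots are its 10 Mb windows in order; chromosome 19 is lowest in both panels at -0.33 and -0.43, and chromosome 12 stands at 0.25 and 0.24.

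Chromosomes 8 and 19 had relatively fewer deltaRepA peaks along their whole length and chromosome 11 along nearly all of it. Several other chromosomes differed by region. All 14 windows of 10 Mb on chromosome 8 had a count ratio below 1, from 0.604 to 0.774, and all 7 on chromosome 19, from 0.642 to 0.835. The last window of chromosome 19 had an interval that held 1 (0.561 to 1.14). On chromosome 11 the ratio was below 1 in 12 of 13 windows, from 0.761 to 1.02. On chromosome 12 the windows ran from 0.765 at 20 to 30 Mb to 2.02 at 60 to 70 Mb and 1.91 at 90 to 100 Mb. Chromosome 1 went from 1.23 in its first 10 Mb to 0.778 at 190 to 200 Mb, and chromosome 15 from 1.54 at 20 to 30 Mb to 0.751 at 90 to 100 Mb. Summit reads on chromosome 8 were less even than peak numbers, with window medians from -0.57 to 0.17.

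The regional pattern recurred with dox. Over the 256 autosomal windows with values in both pairs, which share no library but share both lines, the window medians of the no-dox and plus-dox pairs had a Pearson r of 0.94 and a Spearman rho of 0.94. Within chromosomes, after the median of each was taken off, r was 0.93. In 239 windows (93.4%) both pairs lay on the same side of the autosomal median. Windows rich in shared peaks with at least 40 summit reads over both lists tended to have relatively fewer reads in deltaRepA. Those with at least 183 such peaks had a median of -0.13 and those with at most 102 a median of 0.15. Wild type had more reads without dox, so the read filter itself can enter this relation, and its part was not tested. With dox the same windows gave -0.11 and 0.16. What the windows share in base composition or gene content was not examined.

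**Figure D4:**
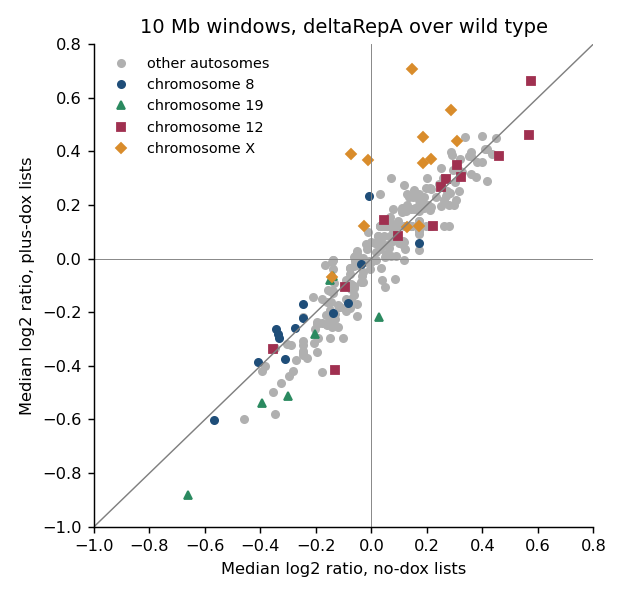
Each point is a 10 Mb window placed by its median log2 ratio of summit reads, deltaRepA over wild type, in the no-dox lists (horizontal axis) and the plus-dox lists (vertical axis); the diagonal marks equal values. The 256 autosomal windows lie along the diagonal (r = 0.94), chromosome 12 reaches 0.57 and chromosome 19 -0.66 without dox, and the X windows (diamonds) mostly lie above it.

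At a finer scale, 2359 windows of 1 Mb held at least 20 peaks in either list. Over these lists deltaRepA contributed 48.0% of all peaks. The interval of the deltaRepA share lay below that value in 184 windows, 85 of them among the 126 windows of chromosome 8, and above it in 196, 30 of them among the 102 of chromosome 12. The highest shares were 76.8% at 68 to 69 Mb of chromosome 12, with 76 deltaRepA against 23 wild-type peaks, and 76.4% at 69 to 70 Mb, with 94 against 29. With dox these windows held 86 against 29 and 102 against 42. The lowest share was 25.0% at 6 to 7 Mb of chromosome 8, with 16 against 48 peaks, and 28 against 55 with dox.

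Unmatched peaks also stood in runs. Runs of at least 10 neighbouring wild-type peaks without a deltaRepA counterpart numbered 80, of which 39 were on chromosome 8 and 21 on chromosome 1. Chromosome 8 held 7.77% of all wild-type peaks and chromosome 1 13.2%, and 46.6% and 52.2% of their peaks had a counterpart. In deltaRepA there were 105, of which 17 were on chromosome 12 and none on chromosome 8. These chromosomes held 5.12% and 5.14% of all deltaRepA peaks, and 57.0% and 77.3% of their peaks had a counterpart. Whether runs were more frequent than these shares would give was not tested. The longest wild-type run was 23 peaks on chromosome 8 from 79145337 to 79301783, with 9 of its peaks in the wild-type plus-dox list and 7 in the deltaRepA plus-dox list. The longest deltaRepA run was 24 peaks on chromosome 12 from 94076881 to 94236642, with 8 in the deltaRepA plus-dox list and 3 in the wild-type one. Over all unmatched peaks, 32.3% in wild type and 35.5% in deltaRepA were found in the plus-dox list of their own line. In the plus-dox list of the other line 26.8% and 18.2% were found. The peaks of these runs recurred in their own line at about the rate of all unmatched peaks. Peaks in these runs were weak, with median −log10 p values of 4.34 and 3.57.

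Single shared peaks with a difference of at least 2-fold in summit reads were few. Of the 37741 pairs 885 (2.34%) had at least 2-fold more reads in wild type and 1060 (2.81%) in deltaRepA. Scaled by background reads instead, the counts were 403 and 1774, so that the deltaRepA side of the split went from 54.5% to 81.5%. In the plus-dox pair the shares were 3.07% and 4.07%. By chromosome, 7.34% of chromosome 19 and 5.75% of chromosome 8 peaks were on the wild-type side, and 4.88% of chromosome 12 and 4.57% of chromosome 14 peaks on the deltaRepA side.

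The direction of these single-peak differences mostly recurred with dox. Among 24883 autosomal peaks with enough reads in both pairs, the log2 ratios of the pairs had a Pearson r of 0.61 and a Spearman rho of 0.58, and after centring per chromosome 0.59 and 0.55. Over all these peaks 12366 were lower and 12465 higher in deltaRepA with dox, 2.92% and 3.73% at least 2-fold. Of the 412 peaks at least 2-fold higher in wild type without dox, 370 were also lower in deltaRepA with dox, 125 of them at least 2-fold. Of the 667 at least 2-fold higher in deltaRepA, 654 were also higher with dox, 300 of them at least 2-fold. None of either set went 2-fold the other way. The 412 and 667 are the part of the 885 and 1060 given above that was autosomal and had enough reads in both pairs.

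**Figure D5:**
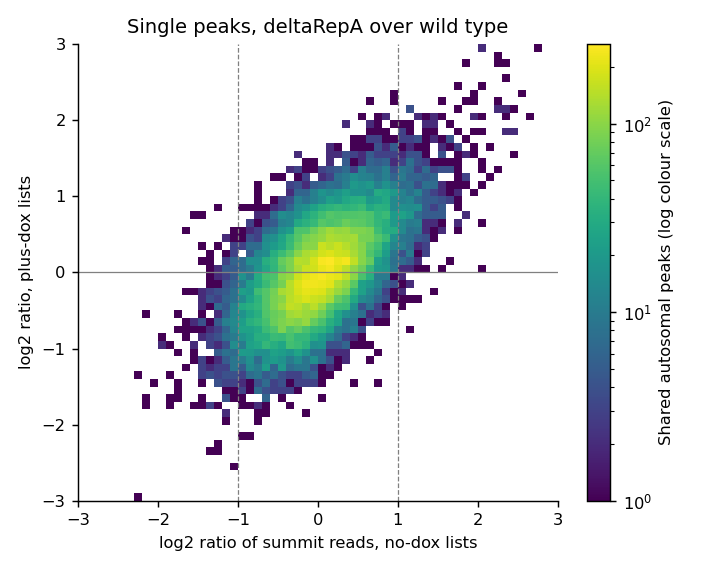
Number of shared autosomal peaks (colour, log scale) by log2 ratio of summit reads, deltaRepA over wild type, in the no-dox lists (horizontal axis) and plus-dox lists (vertical axis), with values beyond the axes drawn in the edge bin. Dashed lines mark 2-fold in the no-dox lists; the 24883 peaks form a cloud along the diagonal (r = 0.61).

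Some differences at shared peaks were several-fold. On chromosome 11 the peak at 41639544 to 41640173 had 74 summit reads in wild type and 9 in deltaRepA, and 67 and 7 with dox. On chromosome 19 the peak at 53166646 to 53167225 had 77 and 10 reads, and 45 and 13 with dox. In the other direction the peak on chromosome 12 at 97041200 to 97041502 had 13 wild-type and 51 deltaRepA reads, and 8 and 55 with dox. The peak on chromosome 7 at 96471094 to 96471701 had 17 and 51, and 10 and 53 with dox. These peaks were picked after their values were seen, from among those with a large difference in both pairs and not strictly by rank. They are given as examples without support drawn from them.

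The X, the chromosome on which both lines carry the altered Xist, was not the most different one before induction. Its count ratio was 1.14 (1.08 to 1.21), with 2504 deltaRepA and 2377 wild-type peaks, within the autosomal range of 0.663 to 1.32. Shared X peaks had a median log2 read ratio of 0.11 over 879 peaks, also within the autosomal range. With dox the count ratio over all peaks was 1.48 and the median read ratio 0.40, both above every autosome. Chromosomes 8 and 12 had about the same values with and without dox. Chromosome 19 moved from 0.757 to 0.701 in count ratio and from -0.33 to -0.43 in reads. The X moved further, from 1.14 to 1.48 and from 0.11 to 0.40. With 1 list per sample this could not be tested.

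X peaks were shared more often than autosomal ones, and they were also stronger, with a median −log10 p of 8.34 against 6.23 over the whole wild-type list and 6.68 against 5.70 in deltaRepA. Of the X peaks 76.0% of wild-type and 72.9% of deltaRepA ones had a counterpart, 12.9 and 6.59 points from the autosomal medians. At equal strength these gaps were 6.26 and -0.56 points, so the direction for deltaRepA peaks depended on peak strength. All 521 strong wild-type X peaks were found in deltaRepA. Of the 334 strong deltaRepA X peaks 2 were absent from wild type, at 129279586 to 129280312 with 28 summit reads and at 106897894 to 106898280 with 26. Both recurred in deltaRepA with dox and in neither wild-type list.

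X peaks in both deltaRepA lists and neither wild-type list numbered 230, or 9.19%, near the autosomal 8.50%. Those in both wild-type lists and neither deltaRepA list numbered 42, or 1.77%, below the autosomal 7.58%. The wild-type plus-dox list enters both counts, and that sample had been given dox. In the no-dox lists alone, 679 deltaRepA X peaks (27.1%) and 571 wild-type X peaks (24.0%) were unmatched, both below the 33.7% and 39.3% of the whole lists.

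At the Xist gene itself the main site was called in both lines. Relative to the autosomal median it had more summit reads in deltaRepA, but its fold over the local background was not higher there. Peaks were taken from the stretch of the X in which Xist lies in mm9 by general knowledge, since no mm9 annotation was used. The strongest peak there, at 100667368 to 100668143 in wild type, had 47 summit reads in wild type and 36 in deltaRepA without dox, and 28 and 37 with dox. Relative to the autosomal median the log2 ratio was 0.37 without dox, just above the upper quartile of 0.36 over shared X peaks, and 0.52 with dox. Its fold enrichment over the local background was 8.51 in wild type and 8.41 in deltaRepA without dox, and 9.25 and 8.48 with dox. That local background was 1.22 and 1.69 times the genome-wide value without dox, and 1.00 and 1.61 times with dox. Counting error on so few reads is large, and the difference in reads has no replicate check. Peaks at 100676837 to 100677516, with 13 reads in each deltaRepA list, and at 100649302 to 100649516, with 11 reads without dox and 9 with dox, were in both deltaRepA lists and in neither wild-type list. Peaks of this stretch were chosen after their values were seen, and whether any of them lies at the A repeat or at the inserted promoter was not examined.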

How the data were processed

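ATAC-seq peak lists of 4 TXY samples were used, with 1 list per sample made from merged libraries, and the library lists of female embryonic stem cells and wild-type neural progenitors gave positions only. Per the submitters' processing notes, reads were handled with cutadapt, Bowtie2 and MACS2 on the build mm9; tool versions, duplicate handling and any shift of reads to the Tn5 cut site were not given in the sources used. The authors deposited for each peak its position, its fold enrichment, which is a ratio to the local background, and its −log10 p and q values. These are the authors' own values and were used to rank or filter peaks within a list.

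A peak counted as found where bedtools 2.31.1 gave it at least 1 bp in common with a peak of the other list. Shares carry exact Clopper-Pearson 95% intervals and count ratios 95% intervals by the normal approximation on the log scale. Summit reads were recovered from fold and p, taking fold as reads plus 1 over background plus 1 and p as the Poisson tail, with a tolerance of 0.001 on −log10 p. Raw reads are printed per list, and ratios between lists are relative to the autosomal median; this step, the 10 Mb windows and the X stretch were chosen after seeing the data. It assumes that the authors extended reads alike in every list.

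Named peaks were the 5 strongest of each no-dox list, the 10 strongest absent from the other no-dox list, the 10 strongest in both lists of a line and neither of the other, the extreme 1 Mb windows with at least 20 peaks, the 3 longest runs and the autosomes with the 3 highest and 3 lowest count ratios; part of them is printed. Steps were tested on simulated data. Planned counts at promoters of listed genes and cell type markers needed an mm9 annotation and were not done. The software was scipy 1.17.1, pandas 2.3.3, numpy 2.4.6, matplotlib 3.10.9 and python 3.11.15. The peaks, comparisons and lists were chosen with earlier results of these data known.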

Additional observations from a re-analysis of the deposited data

How the results depend on the processing

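The count ratios of chromosomes 8, 12 and X kept their direction with the stricter q and with the strongest 100000 peaks; those of chromosomes 1, 5, 9 and 17 turned among peaks with a −log10 p of at least 20, to 1.12, 0.972, 0.939 and 0.966. With a −log10 q of at least 5, a reciprocal overlap of 50%, a distance of 500 bp or the strongest 100000 peaks, the share of wild-type peaks found in deltaRepA was 62.7%, 50.4%, 63.6% and 67.2%, and that of deltaRepA peaks found in wild type 81.2%, 54.6%, 69.0% and 67.8%. The X minus the autosomal median for wild-type peaks was 10.1 points with the stricter q, 8.87 with the strongest 100000 and 6.26 at equal strength. For deltaRepA peaks it was 1.85 with the stricter q, 8.63 with reciprocal overlap and -0.56 at equal strength, where the direction turned. The chromosome 8 count ratio was 0.777 with the stricter q and 0.746 with the strongest 100000 peaks, and the chromosome 12 ratio 1.19 with the stricter q. With the stricter q fewer peaks entered, and 5067 were in both wild-type lists and neither deltaRepA list and 3335 the other way. The larger count was then in wild type, whereas it was in deltaRepA over all peaks, and the cause was not tested. Without chromosomes 1, 8, 11, 12, 15 and 19, a setting added after seeing the data, 5735 and 7922 remained of 10454 and 10982, as fewer peaks entered. On the other autosomes they were 6.65% of 85582 and 9.11% of 84396 peaks, next to 7.48% and 8.51% of the full lists. Of the strong unmatched peaks 81 of 133 and 88 of 110 remained. With at least 80 summit reads, also added, 100 and 109 matched peaks were 2-fold apart, and chromosomes 8, 12 and 19 kept medians of -0.28, 0.23 and -0.28. The cause of the other changes was not tested. The wider promoter window was not run, for want of an mm9 annotation. No paired analysis was possible because each sample is 1 list. The part of depth was not tested. Absence from a list means that no peak was called there, not that the site was closed.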
